A study of Polistes metricus with 16 samples.

Results

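The 60 assembled transcripts described here are those for which the 4 worker-reared larvae of the paper wasp Polistes metricus stood furthest above every other larva of the study. They were chosen from 29445 transcripts with a mean of 0.5 CPM or more (CPM, read counts put on a common library size with TMM scaling factors), out of 74517 in the table. For each transcript the highest of the 12 other larvae was subtracted from the lowest of the 4 worker-reared larvae on the log2(CPM + 0.5) scale, and the 60 transcripts with the largest such gap were taken. The levels of worker-reared larvae against the rest therefore chose the members, and are given as a description with no test.

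RNA was sequenced from the heads of 16 individual female larvae of the fifth instar, 4 in each of 4 groups. Both field groups came from nests at Madrid, Iowa, in 2010: worker-reared larvae, which are queen-destined, in late summer, and foundress-reared larvae, which are worker-destined, in late spring. Restricted larvae (nests given a worm every 3 days) and ad libitum larvae (a worm every 1 day) came from North Carolina nests collected in late spring of 2009 and kept in a laboratory. Season cannot be told apart from rearing caste in the field larvae, nor year and origin from laboratory rearing, and the labels do not say which larvae were nest mates.

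In Polistes, caste is shaped by how a female larva is reared and fed. A foundress feeds the first brood of spring alone, and its daughters become workers that stay on the nest. Workers feed the later brood, from which come females that store reserves, pass the winter and found nests in the next year. The larval head holds the brain, the mouthparts and muscle, and hormones such as juvenile hormone that act on caste in social insects are made by glands close to the brain. Gene names and sequences were not at hand for these identifiers, so no function is given to any transcript below. Markers of brain, muscle or gland could not be read for the same reason.

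Libraries held 30084017 to 37626473 counts in worker-reared, 28359372 to 32569316 in foundress-reared, 29487724 to 33561419 in restricted and 29048017 to 33471057 in ad libitum larvae. The 10 most abundant transcripts took 7.59% to 10.2% of the counts of worker-reared larvae, 10.01% to 32.13% in foundress-reared, 7.58% to 18.7% in restricted and 8.68% to 28.1% in ad libitum larvae. TMM factors were 1.03 to 1.35 in worker-reared larvae and 0.651 to 1.32 in the rest. These ranges overlapped between groups, though worker-reared larvae lay in the lower part of the first and the upper part of the second. The part of library composition in the levels below was not tested. In a bulk head sample, fewer cells of a type and less RNA per cell cannot be told apart.

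All 4 worker-reared larvae lay above all 12 others for 93 of the 29445 transcripts (0.316%). Applied in the same way to the other groups, the count was 171 (0.581%) for foundress-reared, 106 (0.36%) for restricted and 28 (0.0951%) for ad libitum larvae. The worker-reared count was 146 without foundress-reared replicate 1, 234 without worker-reared replicate 1 and 387 without worker-reared replicate 2. The gap of the 60 members ran from 0.60 to 0.036 on the log2 scale, with a median of 0.085, and 10 members had a gap above 0.2. Most members were therefore separated by a narrow margin, the lowest worker-reared larva being a median of 1.07-fold above the highest other larva.

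**Figure D1:**
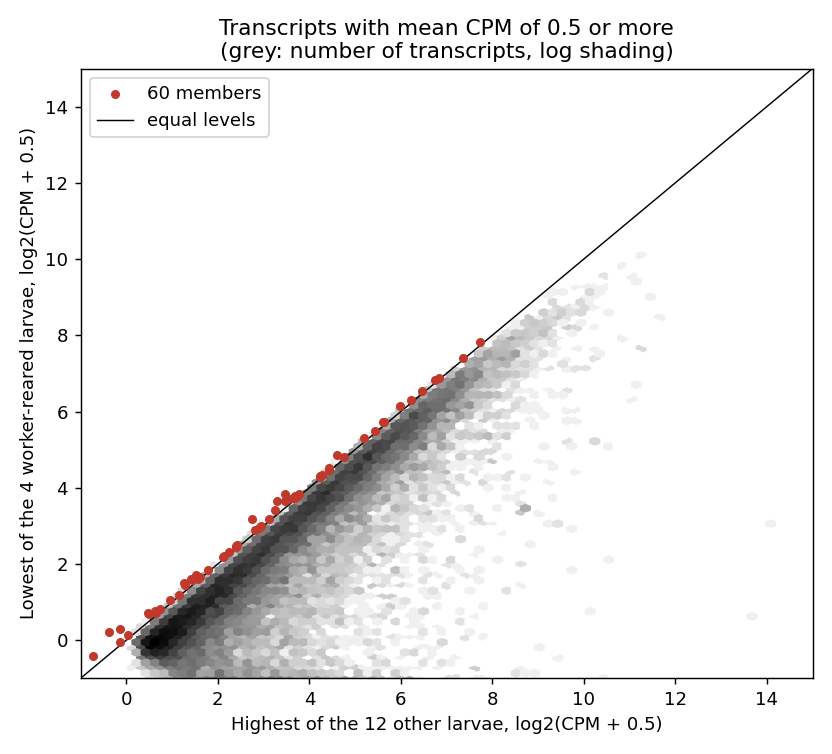
Lowest of the 4 worker-reared larvae (vertical axis) against the highest of the 12 other larvae (horizontal axis), both as log2(CPM + 0.5), for 29445 transcripts. Grey shading gives the number of transcripts on a log scale and red points are the 60 members, which lie just above the line of equal levels with gaps from 0.036 to 0.60.

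Just inside the limit, PmetTSAr1.1-027066 had 1.78 to 2.50 CPM in worker-reared larvae and at most 1.72 CPM elsewhere, a gap of 0.036. PmetTSAr1.1-021197 and PmetTSAr1.1-022650 had gaps of 0.038 and 0.039. Just outside it, PmetTSAr1.1-026103, PmetTSAr1.1-002072 and PmetTSAr1.1-004183 had gaps of 0.035, 0.034 and 0.034. The limit thus falls where the gaps of neighbouring transcripts are nearly equal.

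The mean level of members over the 16 larvae ran from 0.507 to 198 CPM with a median of 6.84 CPM, against a median of 4.54 CPM over the 29445 transcripts. The mean of worker-reared larvae was 1.21 to 116 times the mean of the other 12, with a median of 1.64. The ratio was above 1.5 in 36 members, above 2 in 19, above 3 in 6 and above 10 in 4. The 4 members above 10 had few counts outside worker-reared larvae, and the remaining 56 were detected in all 12 other larvae.

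**Figure D2:**
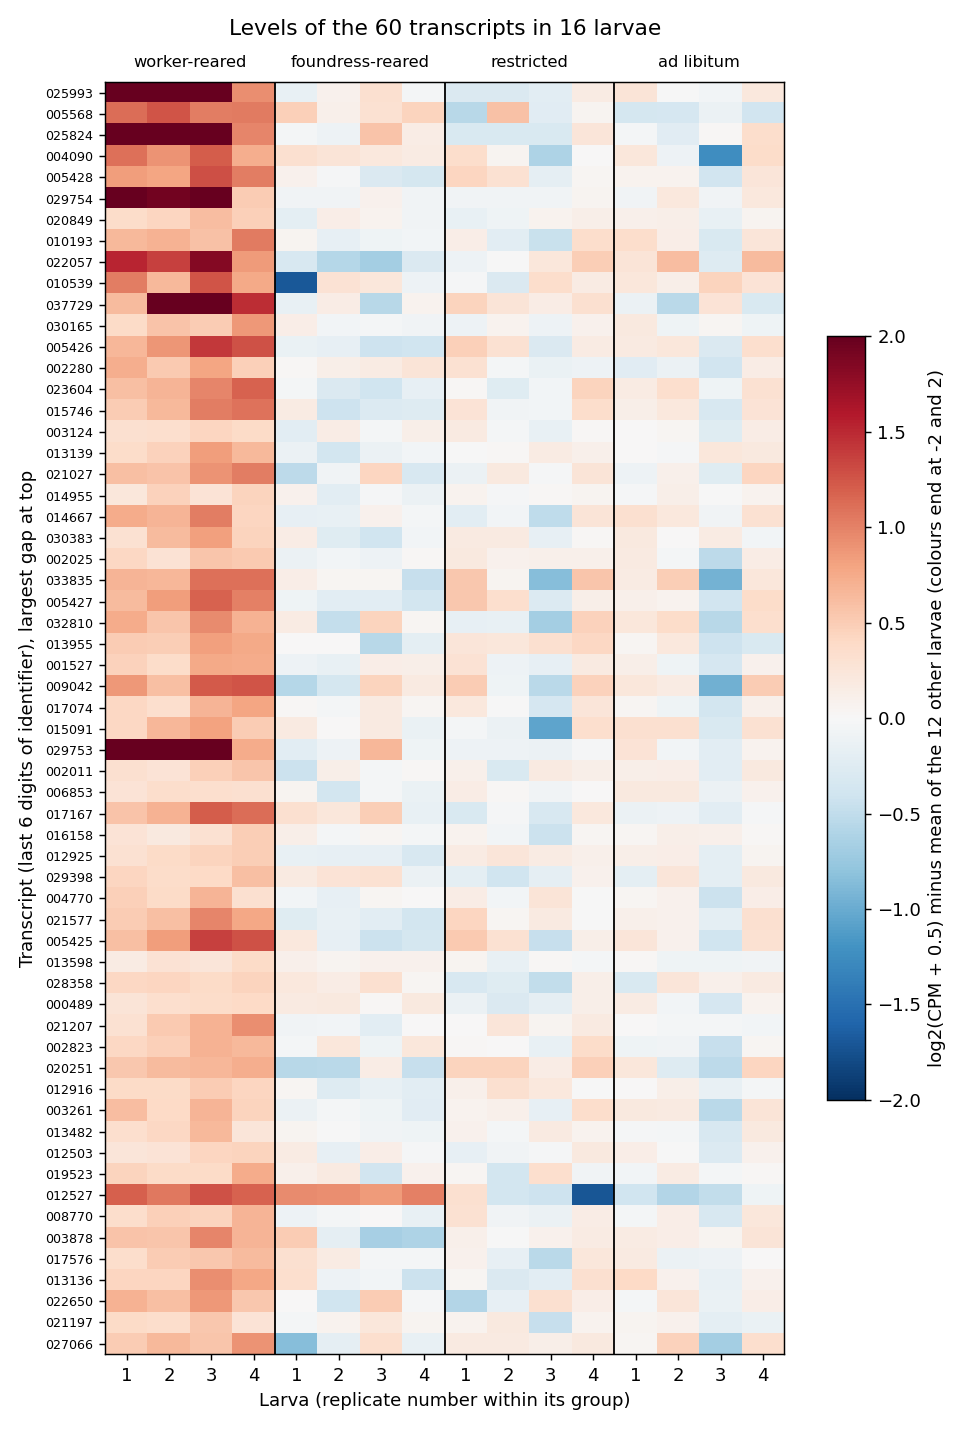
Level of each of the 60 members (rows, largest gap at top) in each of the 16 larvae (columns, by group and replicate), as log2(CPM + 0.5) minus the mean of the 12 larvae that are not worker-reared. Red is higher and blue lower, and colours end at -2 and 2. The 4 left columns are the highest 4 in every row by the choice of members.

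The sharpest contrast was in PmetTSAr1.1-025993, PmetTSAr1.1-025824, PmetTSAr1.1-029754 and PmetTSAr1.1-029753. PmetTSAr1.1-025993 had 281, 127, 669 and 24 counts in worker-reared replicates 1 to 4, or 8.05, 3.29, 14.0 and 0.66 CPM, and 0 to 9 counts in each of the other larvae (46 in all). PmetTSAr1.1-025824 had 487, 162, 1010 and 26 counts in the same larvae and 0 to 14 elsewhere (50 in all). PmetTSAr1.1-029753 had 397, 142, 903 and 17 counts, and 0 to 14 elsewhere (34 in all). The same worker-reared larvae were high and low for each of these transcripts, replicate 3 being highest and replicate 4 lowest.

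PmetTSAr1.1-029754 had 145, 58, 302 and 9 counts in worker-reared replicates 1 to 4. Elsewhere it had 0 counts in 8 of 12 larvae and 4 or fewer in the rest, 12 in all, and it was the only member that had too few counts to enter the tests below. Mean CPM in worker-reared larvae was 55.9, 78.3, 116 and 101 times the mean of the other 12 for PmetTSAr1.1-025993, PmetTSAr1.1-025824, PmetTSAr1.1-029754 and PmetTSAr1.1-029753. These ratios rest on few counts outside the worker-reared group and on 3 worker-reared larvae, since replicate 4 had 0.248 to 0.715 CPM of each. The largest level outside the group was 0.413 CPM, of both PmetTSAr1.1-025824 and PmetTSAr1.1-029753 in foundress-reared replicate 3.

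**Figure D3:**
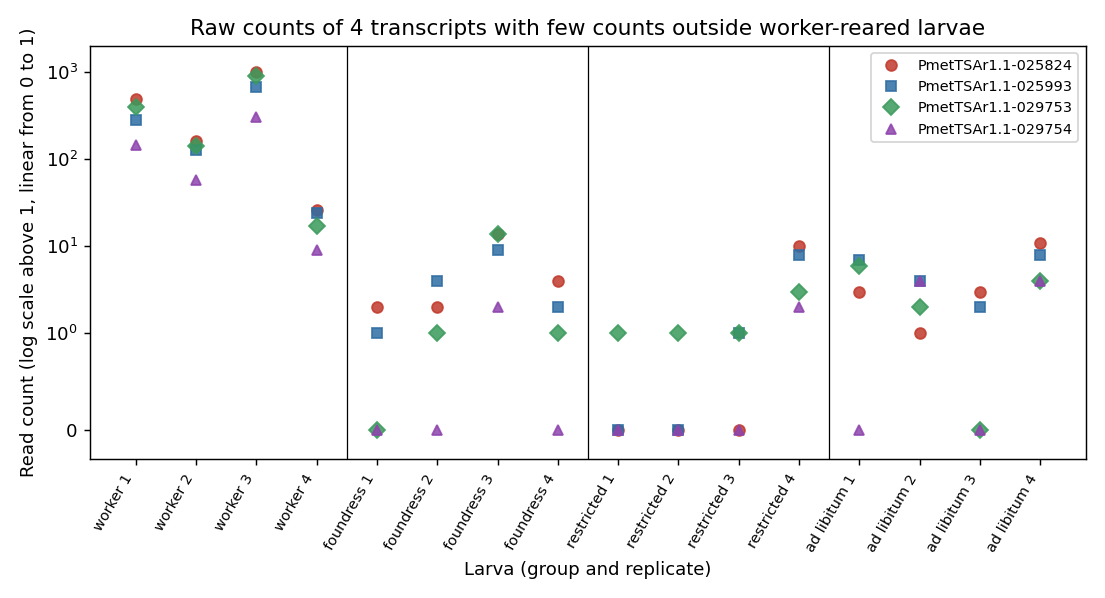
Raw read counts of PmetTSAr1.1-025824, PmetTSAr1.1-025993, PmetTSAr1.1-029753 and PmetTSAr1.1-029754 in each of the 16 larvae, on an axis that is logarithmic above 1 and linear from 0 to 1. Worker-reared larvae had 9 to 1010 counts and the other larvae 0 to 14.

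Between worker-reared larvae, the ratios of these transcripts to each other varied far less than their levels did. Within the worker-reared group the highest larva was 21.2 to 40.4 times the lowest in each of these transcripts. The ratio of PmetTSAr1.1-029754 to PmetTSAr1.1-025824 was 0.298, 0.358, 0.299 and 0.346 in worker-reared replicates 1 to 4. The ratio of PmetTSAr1.1-029753 to PmetTSAr1.1-025824 was 0.815, 0.877, 0.894 and 0.654, and that of PmetTSAr1.1-025993 to PmetTSAr1.1-025824 was 0.577, 0.784, 0.662 and 0.923. That of PmetTSAr1.1-029754 to PmetTSAr1.1-029753 was 0.365, 0.409, 0.334 and 0.529. The ratios of replicate 4 rest on 9 to 26 counts of each transcript. Transcript lengths were not used, so these ratios compare larvae and not the abundance of one transcript with another. PmetTSAr1.1-029753 and PmetTSAr1.1-029754 have consecutive identifiers, and the files do not tell whether these transcripts share reads.

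A second set stands together by identifier, PmetTSAr1.1-005425, PmetTSAr1.1-005426, PmetTSAr1.1-005427 and PmetTSAr1.1-005428, all moderately abundant. PmetTSAr1.1-005428 had 12.4, 11.99, 17.3 and 14.3 CPM in worker-reared replicates 1 to 4. It had 5.18 to 7.21 CPM in foundress-reared, 5.92 to 9.28 CPM in restricted and 5.06 to 8.06 CPM in ad libitum larvae. The other groups overlapped each other, and the worker-reared mean was 2.04 times the mean of the 12.

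PmetTSAr1.1-005426 had 12.1, 14.1, 20.7 and 18.7 CPM in worker-reared replicates 1 to 4 and 5.43 to 10.6 CPM elsewhere. PmetTSAr1.1-005427 had 12.8, 14.8, 18.9 and 16.8 CPM against 6.11 to 11.9 CPM, and PmetTSAr1.1-005425 had 13.8, 16.3, 24.0 and 22.2 CPM against 6.39 to 13.1 CPM. In all 4 of these transcripts worker-reared replicate 3 was highest and replicate 4 next. The ratio of PmetTSAr1.1-005426 to PmetTSAr1.1-005425 was 0.840 to 0.875 in worker-reared larvae and 0.646 to 0.930 in the other 12. That of PmetTSAr1.1-005428 to PmetTSAr1.1-005427 was 0.808 to 0.971 and 0.759 to 0.953. If reads of near-identical isoforms or copies were counted for each, these members may repeat a single difference, and the counts of members given here take each transcript on its own. The 10 transcripts with the nearest identifiers had worker-reared means 0.724 to 1.18 times those of the 12 others and gaps below 0. Any member among them would have been placed in the set, and only 0.316% of the 29445 transcripts had a gap above 0. Nothing is therefore read from these gaps.

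PmetTSAr1.1-013136 and PmetTSAr1.1-013139 also have close identifiers. PmetTSAr1.1-013139 had 2.46, 2.69, 3.64 and 3.11 CPM in worker-reared replicates 1 to 4 and 1.28 to 2.19 CPM elsewhere. PmetTSAr1.1-013136 had 2.66, 2.67, 3.97 and 3.49 CPM against 1.23 to 2.57 CPM. Both were highest in worker-reared replicate 3. Here the 12 nearest identifiers had worker-reared means 1.03 to 1.48 times those of the other larvae. All had gaps below 0, from which again nothing is read.

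Among members present in every larva, PmetTSAr1.1-005568 had the widest gap, 0.43. It had 9.28, 10.3, 8.57 and 8.70 CPM in worker-reared replicates 1 to 4. Foundress-reared larvae had 4.32 to 5.74 CPM, restricted larvae 2.56 to 6.25 CPM and ad libitum larvae 2.95 to 3.63 CPM. The worker-reared larvae lay within 1.2-fold of each other, so this difference was steady across the group.

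PmetTSAr1.1-004090 had 17.9, 15.4, 19.2 and 13.7 CPM in worker-reared larvae and at most 10.6 CPM elsewhere, with ad libitum replicate 3 lowest at 3.12 CPM. PmetTSAr1.1-020849 had 28.4, 29.6, 33.8 and 30.6 CPM against 19.0 to 23.9 CPM. Its other 3 groups were nearly level, with means of 21.7, 21.8 and 22.4 CPM in foundress-reared, restricted and ad libitum larvae. PmetTSAr1.1-002280 had 15.1, 12.9, 15.8 and 12.6 CPM against 6.66 to 11.1 CPM. The 12 other larvae were widely spread in PmetTSAr1.1-004090 (SD 0.48 on the log2 scale) and close together in PmetTSAr1.1-020849 (SD 0.12).

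**Figure D4:**
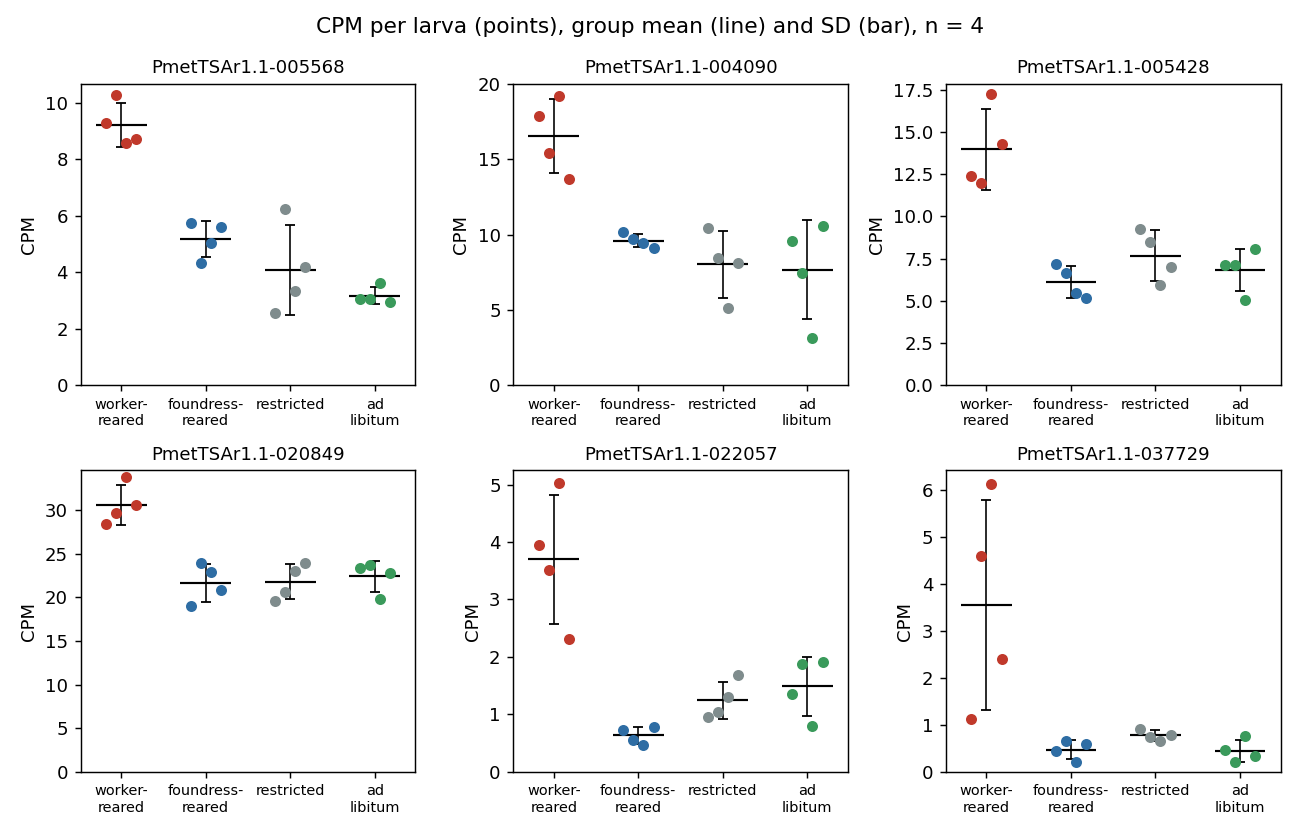
CPM of 6 members in each larva (points) with the group mean (line) and SD (bar), n = 4 per group, on axes that start at 0. In each panel the 4 worker-reared larvae are the highest, from a 1.40-fold ratio of means in PmetTSAr1.1-020849 to 6.31-fold in PmetTSAr1.1-037729.

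PmetTSAr1.1-022057 and PmetTSAr1.1-037729 had larger ratios at low levels. PmetTSAr1.1-037729 had 1.12, 4.61, 6.13 and 2.39 CPM in worker-reared replicates 1 to 4 and 0.207 to 0.913 CPM elsewhere, a 6.31-fold ratio of means. PmetTSAr1.1-022057 had 3.95, 3.52, 5.02 and 2.31 CPM in worker-reared larvae and at most 1.90 CPM elsewhere, a 3.31-fold ratio. It was lowest in foundress-reared larvae, at 0.472 to 0.773 CPM.

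Smaller levels were seen in PmetTSAr1.1-010193, with 1.2, 1.27, 1.13 and 1.73 CPM in worker-reared larvae and 0.297 to 0.891 CPM elsewhere. PmetTSAr1.1-023604 had 2.21, 2.36, 3.01 and 3.52 CPM against 0.856 to 1.93 CPM, and PmetTSAr1.1-030165 had 2.55, 2.98, 2.82 and 3.77 CPM against 1.67 to 2.18 CPM. PmetTSAr1.1-010539 had 3.78, 2.80, 4.50 and 3.05 CPM against at most 2.36 CPM. Foundress-reared replicate 1 stood far below the rest for this last transcript, at 0.147 CPM.

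The most abundant member was PmetTSAr1.1-001527, with 241, 227, 297 and 292 CPM in worker-reared replicates 1 to 4 and 138 to 213 CPM elsewhere. PmetTSAr1.1-000489 had 170, 179, 182 and 186 CPM against 112 to 163 CPM, and PmetTSAr1.1-012503 had 117, 120, 134 and 136 CPM against 82.1 to 113 CPM. PmetTSAr1.1-015091 had 114, 135, 149 and 121 CPM against 40.8 to 107 CPM, and PmetTSAr1.1-003261 had 107, 91.8, 111 and 94.1 CPM against 47.4 to 88.2 CPM. The ratios of means of these abundant members were small, 1.26-fold in PmetTSAr1.1-000489 to 1.5-fold in PmetTSAr1.1-001527, with gaps of 0.053 to 0.090.

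Within the worker-reared group the highest larva was a median of 1.33 times the lowest over the 60 members, against 1.61 over the 29445 transcripts. A small spread within the group widens the gap, so part of this follows from the choice of members. The ratio was below 1.5 in 41 members and above 3 in 5, which were the 4 transcripts with few counts elsewhere and PmetTSAr1.1-037729. The steadiest members were PmetTSAr1.1-028358, with 4.50, 4.56, 4.43 and 4.62 CPM, and PmetTSAr1.1-006853, with 8.59, 9.06, 9.01 and 8.83 CPM.

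The worker-reared larvae did not share the members' high levels evenly. Replicate 3 was the highest of the 4 in 36 of the 60 members and replicate 4 in 21, whereas they were the highest in 29.7% and 18.2% of the 29445 transcripts. Replicate 2 was highest in 3 members and replicate 1 in 0, against 30.3% and 21.7% of all transcripts, and replicate 1 was the lowest of the group in 28 members, against 18.5% of all transcripts. Replicate 3 also had the largest TMM factor of the 16 libraries, 1.35. Counts are divided by totals multiplied by this factor, so it lowered the CPM of replicate 3. The part of that scaling in its rank was not tested.

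Among the other 12 larvae, the one closest to the worker-reared larvae was a restricted larva in 29 members, an ad libitum larva in 17 and a foundress-reared larva in 14. Over the 29445 transcripts the highest of these 12 was a restricted larva in 39.1%, an ad libitum larva in 22.4% and a foundress-reared larva in 38.4%. Foundress-reared larvae, from the same site and year, had the lowest mean log2 level of the other 3 groups in 31 members, restricted larvae in 18 and ad libitum larvae in 11. The corresponding shares of all transcripts were 32.5%, 40.5% and 27.0%. The rule subtracts the highest of the 12 larvae, so this order among members can follow in part from their choice.

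The rule names no direction among the other 3 groups, but it subtracts the highest of the 12 larvae. Over the 29445 transcripts that larva was foundress-reared in 38.4%, restricted in 39.1% and ad libitum in 22.4%. The direction of differences among these groups can therefore follow in part from the choice of members. These differences were tested with edgeR's quasi-likelihood test on 36337 transcripts, with Benjamini-Hochberg adjustment. Of the 60 members 59 were tested, and 56 were measured when the worker-reared libraries were left out. PmetTSAr1.1-025993, PmetTSAr1.1-025824 and PmetTSAr1.1-029753, with 0 to 14 counts in each other larva, passed the count filter only through the worker-reared larvae. Their fold changes rest on few counts (SE 1.1, 1.3 and 1.5 for ad libitum over restricted). They are included in the counts and medians of tested members below. The rule favours members with a small spread, which can itself lower their p-values. It also disfavours transcripts with a large difference among the 12 other larvae, because the highest of these is subtracted. Low numbers of members called can therefore follow in part from the choice of members. The 3 comparisons share groups, so their results are not independent of each other.

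Between ad libitum and restricted larvae no member was called higher or lower, and no transcript of all those tested was (0% in either direction, edgeR adjusted p under 0.05). An unadjusted p under 0.05 was reached by 1 member, which was lower with ad libitum food, where 7.6% of all transcripts were lower and 6.02% higher by that measure. DESeq2 and limma voom also called 0 members, of 484 and 0 transcripts called in all. The median log2 fold change of members was -0.018 against -0.00061 for all transcripts, and 28 of 59 were positive, as were 49.9% of all transcripts. The member with the smallest p was PmetTSAr1.1-013955, with 4.92, 5.59, 3.46 and 3.75 CPM in ad libitum replicates 1 to 4 and 5.74, 5.66, 6.10 and 6.48 CPM in restricted replicates 1 to 4 (edgeR adjusted p = 0.334 for a log2 fold change of -0.43 with SE 0.186). The groups did not overlap for this transcript, but the difference did not pass the test.

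PmetTSAr1.1-014667 and PmetTSAr1.1-028358 followed, with log2 fold changes of 0.31 (SE 0.169) and 0.33 (SE 0.181) that did not pass either. CPM did not overlap between the groups in 2 members, both lower with ad libitum food (2.68% of all transcripts), and in 0 in the other direction (2.61%). Without restricted replicate 4, which left 3016 of all transcripts called, the number of members called was still 0.

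Between foundress-reared and restricted larvae 1 member was called higher (2.32% of all transcripts) and 0 lower (3.1%). PmetTSAr1.1-012527 had 20.1, 19.8, 18.7 and 20.9 CPM in foundress-reared replicates 1 to 4 and 12.8, 7.76, 7.52 and 2.74 CPM in restricted replicates 1 to 4. The groups did not overlap (edgeR adjusted p = 0.0248 for a log2 fold change of 1.37 with SE 0.304, the adjusted p running from 0.00117 to 0.159 over the alternatives). Its levels in worker-reared larvae, 23.8, 21.6, 25.1 and 23.7 CPM, were close to those of the foundress-reared group, so this member separated field from laboratory larvae more than it separated the field groups. The call was lost when foundress-reared replicate 2 or 4, or restricted replicate 2 or 3, was left out, and when the worker-reared libraries were left out of the fit (edgeR adjusted p = 0.0586). Without restricted replicate 4 the members called were 4 of 60, while the calls over all transcripts went from 1968 to 6145. Without foundress-reared replicate 3 or ad libitum replicate 3 there were 2, beside 2035 and 2144 calls over all transcripts.

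Unadjusted p-values under 0.05 were found for 8 members that were lower in foundress-reared than in restricted larvae (12.4% of all transcripts) and for 2 of the 59 that were higher (11.4%). PmetTSAr1.1-020251 had 3.24, 3.29, 5.61 and 3.5 CPM in foundress-reared replicates 1 to 4 and 6.98, 6.95, 5.62 and 7.16 CPM in restricted replicates 1 to 4 (edgeR adjusted p = 0.0625 for a log2 fold change of -0.77 with SE 0.230, and adjusted p = 0.0245 by DESeq2). PmetTSAr1.1-012925 had 3.53, 3.48, 3.51 and 3.09 CPM against 4.53, 4.77, 4.52 and 4.33 CPM (edgeR adjusted p = 0.074 for a log2 fold change of -0.41 with SE 0.131, and adjusted p = 0.0456 by DESeq2). Neither passed with edgeR, and both passed with DESeq2, which called 3 of 59 members and 3975 of all transcripts, where edgeR called 1968. CPM did not overlap in 8 members that were lower in foundress-reared larvae (5.4% of all transcripts) and in 1 that was higher (4.6%). The median log2 fold change of members was -0.098, against -0.0081 for all transcripts, and 34 of 59 were negative, where 49.4% of all transcripts were positive.

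Between foundress-reared and ad libitum larvae 0 members were called (0.0743% of all transcripts higher and 0.124% lower), while an unadjusted p under 0.05 was reached by 2 that were higher in foundress-reared larvae (4.35%) and 3 that were lower (4.87%). DESeq2 called 1 member of 292 transcripts called in all and limma voom 0 of 47, beside 27 higher and 45 lower with edgeR. PmetTSAr1.1-012527 had 7.56, 6.64, 7.04 and 9.60 CPM in ad libitum replicates 1 to 4, below each foundress-reared larva, with the same log2 fold change of 1.37 and SE of 0.304 (edgeR adjusted p = 0.12, with 0.00366 to 0.402 over the alternatives). It was called when restricted replicate 1 or 4 was left out of the fit. It was also called by DESeq2 (adjusted p = 0.00555) and in the edgeR fit of only the 8 libraries compared (adjusted p = 0.0233). PmetTSAr1.1-022057 had 1.35, 1.88, 0.801 and 1.90 CPM in ad libitum larvae, all above the 0.736, 0.549, 0.472 and 0.773 CPM of foundress-reared replicates 1 to 4 (edgeR adjusted p = 0.216 for a log2 fold change of -1.25 with SE 0.323).

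PmetTSAr1.1-005568 went the other way, at 3.04, 3.06, 3.63 and 2.95 CPM in ad libitum larvae, below each foundress-reared larva (edgeR adjusted p = 0.315 for a log2 fold change of 0.71 with SE 0.222). CPM did not overlap in 3 members that were higher in foundress-reared larvae (2.68% of all transcripts) and in 2 that were lower (3.75%). The median log2 fold change of members was -0.095 against -0.0024 for all transcripts, with 38 of 59 negative, where 49.7% of all transcripts were positive. A common direction of the members was not tested, and it can follow in part from their choice.

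**Figure D5:**
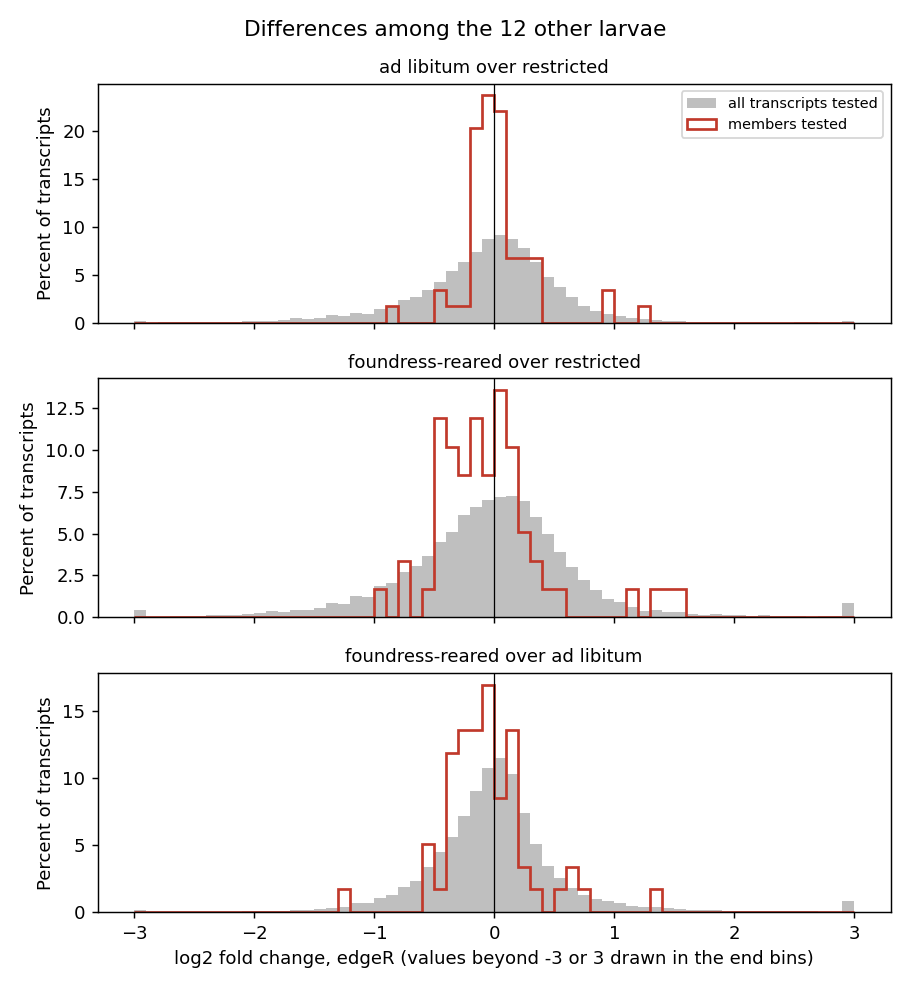
Distribution of edgeR log2 fold changes in 3 comparisons among the 12 larvae that are not worker-reared, as percent of transcripts, for the 59 members tested (red line) and all 36337 transcripts tested (grey). Members centre near 0 in each panel, with medians of -0.018, -0.098 and -0.095 from top to bottom, and spread less widely than all transcripts.

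The absolute log2 fold change of members had a median of 0.114, 0.245 and 0.176 in these comparisons, in the order given, against 0.314, 0.381 and 0.255 for all transcripts. A low spread among the 12 larvae favoured a transcript under the rule, so these smaller values are a description only. In the caste comparison itself, which the rule used, 4 members were among the 9 transcripts called higher in the worker-reared group against the foundress-reared group (0.0248% of all transcripts). They were PmetTSAr1.1-005426, PmetTSAr1.1-005428, PmetTSAr1.1-021577 and PmetTSAr1.1-022057, and nothing is read from that count.

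With field larvae alone, within a single year and site, 1514 transcripts (5.14% of 29445) had every worker-reared larva above every foundress-reared larva. Of the 60 transcripts with the largest such gap, 12 were members. The median rank of the members by that measure was 293.5, so most members are not those that separate the field groups most widely.

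Scaling decided many of the places. All 4 worker-reared larvae stayed above the other 12 in 59 members with RLE size factors, in 46 with upper quartile scaling and in 23 when counts were divided by library totals alone. With division by totals, the median difference of worker-reared larvae from the other 12 was 0.207 on the log2 scale over all 29445 transcripts. With TMM it was -0.012. The 23 members that held under each of these scalings included 13 of the 15 with the largest gap, all 4 with few counts elsewhere and all 4 of the set from PmetTSAr1.1-005425 to PmetTSAr1.1-005428. PmetTSAr1.1-020849 and PmetTSAr1.1-023604 were the ones among those 15 that did not hold, both with library totals alone.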

How the data were processed

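The authors deposited a table of whole-number read counts per assembled transcript, with a column for each of 16 larvae and no normalization. The submitters' processing notes name Bowtie2 and eXpress, with versions, strand handling, filters and the treatment of reads shared between transcripts not given there, so near-identical transcripts are uncertain. The labels' protocols name RNeasy extraction and Illumina TruSeq libraries. From the counts, edgeR 4.0.16 (R 4.3.3) filterByExpr by group kept 36337 transcripts (48.8%), from which TMM factors came. CPM are counts over TMM-scaled totals. One model with a mean per group was fitted to all 16 libraries, with the robust quasi-likelihood F test, Benjamini-Hochberg adjustment and calls at an adjusted p under 0.05. The SE is the absolute log2 fold change over the square root of F. DESeq2 1.42.0 and limma voom 3.58.1 were alternatives. The scripts were tested on simulated data. The members, comparisons and lists were chosen with earlier results of these data known. Transcripts named are the 15 largest gaps, the 5 highest means, those at the limit, those with the smallest p in each comparison, those with 0 counts in most other larvae, runs of close identifiers and the extremes of spread. The labels give each larva a code but no replicate number, so numbers follow record order and pair nothing. Each p-value is set against the spread between these larvae, and the labels do not say which of them shared a nest. The ratios between members and the comparison with neighbouring identifiers were added after the levels had been seen.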

Additional observations from a re-analysis of the deposited data

Results flagged for a closer look

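Of the 152 sets of 4 larvae looked at, 13 had a larva set apart from its group by a gap that took up most of the group's range. About 7.6 such sets would arise by chance if all sets were independent and normally distributed. The sets share larvae and some hold few counts, so that number is only a rough guide. In 5 of the 13 sets the transcript had few counts outside worker-reared larvae. PmetTSAr1.1-025824 was at 0.227 CPM and PmetTSAr1.1-029754 at 0.0453 CPM in restricted replicate 4, both with 0 counts in the rest of that group. PmetTSAr1.1-025993 was at 0.181 CPM in the same larva and at most 0.0297 CPM in the rest. In foundress-reared replicate 3, PmetTSAr1.1-029753 was at 0.413 CPM, above a maximum of 0.0455 CPM in its group, and PmetTSAr1.1-029754 was at 0.059 CPM where its group had 0. These levels stand for 2 to 14 counts.

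At higher levels, PmetTSAr1.1-020251 reached 5.61 CPM in foundress-reared replicate 3, where the rest of the group lay at 3.24 to 3.5 CPM. PmetTSAr1.1-000489 was low in that larva, 145 CPM beside 161 to 163 CPM. PmetTSAr1.1-030165 stood at 2.06 CPM in foundress-reared replicate 1, with 1.73 to 1.77 CPM in the rest. PmetTSAr1.1-012925 stood at 3.09 CPM in foundress-reared replicate 4, with 3.48 to 3.53 CPM in the rest. In restricted replicate 3, PmetTSAr1.1-020251 was at 5.62 CPM and the other restricted larvae at 6.95 to 7.16 CPM. Ad libitum replicate 3 was low for PmetTSAr1.1-015091, at 68.4 CPM beside 105 to 107 CPM, and for PmetTSAr1.1-003261, at 47.4 CPM beside 78.4 to 82.9 CPM. Restricted replicate 4 also had the most transcripts detected, 62026 beside 57586 to 58253.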

How the results depend on the processing

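No paired analysis was run, because the labels give no pairing of larvae and do not say which larvae shared a nest. Members called between foundress-reared and restricted larvae (1) became 3 with DESeq2, 0 in the fit of 12 libraries and 0 in the fit of the 8 libraries compared, and 0 to 4 with a library left out. Between foundress-reared and ad libitum larvae (0) they became 1 with DESeq2 and 1 in the fit of 8 libraries, and 0 to 1 with a library left out. The nutrition count was 0 in all 7 other settings and in all 16 omissions. Of the 60 members, 39 stayed among the 60 largest gaps with upper quartile scaling, 16 with library totals only and 12 with field libraries only. With a library left out, 23 (without worker-reared replicate 2) to 57 stayed, with 30 without worker-reared replicate 1 and 39 without worker-reared replicate 4. The number with every worker-reared larva above the rest (93) was 73 to 117 under other scalings and limits on the mean, and 97 to 387 with a library left out. No named fold change among the other groups changed sign in a setting run. Of these checks 192 kept their state, 9 gained a call and 6 lost it. The named worker-reared levels against the rest also kept their sign, which the choice of members largely fixed in advance. In 40 of those checks the level moved by the SD of the worker-reared larvae or more, and in 135 by less. The cause of these changes was not tested. Depth limits the 6 members with a mean of 1 CPM or less, and 277 counts over all libraries was the smallest total of a member.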

Other observations

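The whole table was searched for transcripts that belong almost wholly to one group, with limits chosen after the levels of PmetTSAr1.1-025824 had been seen. Among 37672 transcripts with at least 100 counts, those with 90% or more of their summed CPM in one group and at least 5 counts in each of its larvae numbered 4 for the worker-reared group. The same limits gave 58 for foundress-reared, 2 for restricted and 0 for ad libitum larvae. The 4 of the worker-reared group were PmetTSAr1.1-025824 (96.3% of summed CPM), PmetTSAr1.1-025993 (94.9%), PmetTSAr1.1-029753 (97.1%) and PmetTSAr1.1-029754 (97.5%), all members, and no further transcript of the table met these limits in that group.

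The order of worker-reared larvae from highest to lowest was replicates 3, 1, 2 and 4 in 11 members, among them these 4, and 5.42% of the 29445 transcripts had that order. Replicates 3, 4, 2 and 1 was the order of another 11 members, against 3.04% of all transcripts, and included PmetTSAr1.1-005425, PmetTSAr1.1-005426 and PmetTSAr1.1-005427. PmetTSAr1.1-029757, which lies close to PmetTSAr1.1-029753 by identifier, had 3.03 CPM in worker-reared and 1.93 CPM in other larvae, and the ratio of means over the 10 nearest identifiers was 0.393 to 1.65.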
